A study of Rattus norvegicus with 6 samples.

Results

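Kinesins are the motor proteins that walk along or disassemble microtubules, and the 28 kinesin genes described here are those of the family that were expressed in cultured fetal rat heart cells treated with all-trans retinoic acid (ATRA). The family was taken as every gene of the deposited table whose symbol is Kif followed by a digit, which gave 38 of 23096 genes, and a member had to have 10 or more normalised counts in 3 or more of the 6 libraries. The 28 members that did so were among 13110 genes that met the same minimum and were tested. They comprised 10 mitotic kinesins, 11 transport kinesins and 7 kinesins with other roles. A normalised count is the number of reads of a gene divided by a size factor of the library, so it can be compared between libraries but not between genes. Comparisons between genes were made in FPKM, which also divides by gene length.

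The cells were prenatal ventricular cardiomyocytes of Wistar rats isolated at E18.5, pre-plated to lower the number of fibroblasts and grown on laminin in medium with serum. One group received 10 µM ATRA, the vitamin A derivative that activates nuclear retinoic acid receptors, and the other received its solvent DMSO (vehicle), in both cases for 48 h with 3 libraries per group. Poly(A) RNA was sequenced, with 25434878 to 32052035 gene-assigned reads per library. The title of the series places the comparison among questions of how cardiomyocytes leave the cell cycle and mature. Whether each library had its own isolation of cells is not stated in the labels, so p-values refer to variation among these libraries, part or all of which may be technical.

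Mitotic kinesins build the bipolar spindle, move and align chromosomes and carry the signals that place the cleavage furrow, and their transcripts peak late in the cell cycle. Transport kinesins carry mitochondria, lysosomes, endosomes and vesicles outward along microtubules, usually through light chains or adaptor proteins that hold the cargo. Fetal heart muscle cells still divide, and they lose this ability around birth while their microtubule network and organelles are reorganised.

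Some facts of the libraries bear on what follows. The labelled cell type fitted its markers in that all 8 cardiomyocyte markers were tested and their summed level was 1161340 to 1187250 normalised counts in ATRA cultures and 693711 to 928813 in vehicle cultures. Of the 10 fibroblast markers 9 reached the minimum, and the sum of the list was 119681 to 126496 in the ATRA libraries, against 279103, 212965 and 125376 in vehicle replicates 1, 2 and 3. The smooth muscle and pericyte sum was 243859 to 256361 in ATRA and 125989 to 158384 in vehicle, the endothelial sum 1273 to 1439 in ATRA and 623 to 1130.4 in vehicle, and the immune sum 304 to 423 in ATRA and 223 to 273 in vehicle. Limma called 3 cardiomyocyte markers higher and 1 lower, 2 of 9 fibroblast markers higher and 2 lower, 4 of 7 smooth muscle and pericyte markers higher and 1 lower, 1 of 7 endothelial markers higher and 2 lower, and 1 of 4 immune markers higher and 1 lower. The median log2 fold change, ATRA over vehicle, was 0.36 for cardiomyocyte, -0.30 for fibroblast and 0.62 for smooth muscle and pericyte markers. It was -0.49 for endothelial markers, with 6 of 7 negative, and -0.52 for immune markers, with 3 of 4 negative. In these last lists the sums were thus higher in ATRA although most tested markers were lower. No marker of these lists was at 0 in all libraries, and the part of cell composition in the kinesin levels was not tested. In such bulk samples fewer cells of a type and less RNA per cell cannot be told apart. The vehicle libraries also differed more from each other than the ATRA libraries did: the median coefficient of variation of the 28 members was 6.61% in ATRA and 11.4% in vehicle, and the vehicle SD was the larger one for 22 members.

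Per gene length, 2 transport motors supplied most of the RNA of the members. Kinesins that are not members, such as Kifc1, Kifc3, Cenpe and Kif1b, are left out of the shares given here. Kif1c, a kinesin-3 motor that carries vesicles and integrins, averaged 130.1 FPKM in ATRA and 103 FPKM in vehicle cultures, and Kif5b, the ubiquitous heavy chain of conventional kinesin, averaged 105 FPKM in ATRA and 127 FPKM in vehicle. Together they held 64.2% to 65.8% of the summed FPKM of the members in the ATRA libraries and 64.0% to 70.6% in the vehicle libraries. Next in order were the mitotic Kif20a with 22.6 FPKM in ATRA and 17.1 in vehicle and the transport kinesin Kif13a with 19.0 in ATRA and 18.2 in vehicle. Then came the mitotic Kif23 with 11.7 FPKM in ATRA and 12.3 in vehicle, and Kif26a with 13.4 in ATRA and 4.55 in vehicle. The 10 mitotic kinesins together held 16.9% to 18.6% of the FPKM of the members in ATRA and 13.7% to 19.0% in vehicle. These shares overlapped. At the low end stood Kif5c, Kif5a, Kif21b and Kif24, each under 1 FPKM in all libraries. The FPKM ranges of neighbours in this order mostly overlapped, as for Kif20a and Kif13a, whereas both leading motors lay apart from the rest.

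**Figure D1:**
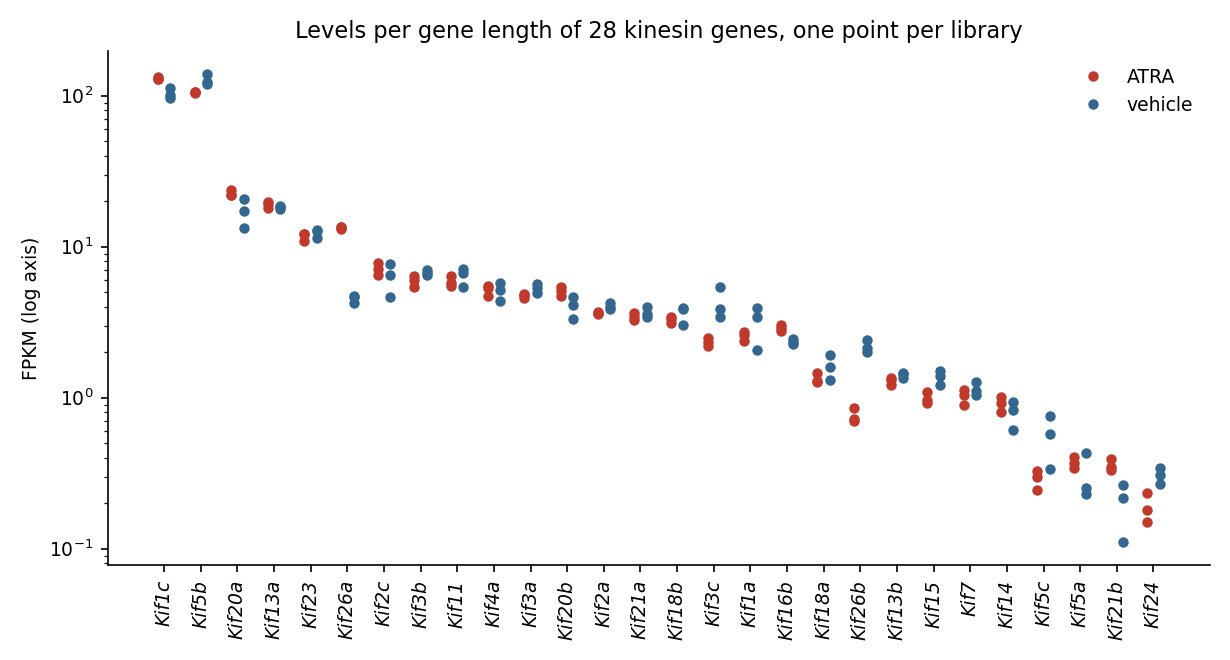
FPKM of the 28 kinesin genes (log axis), ordered by their mean over all libraries, with 1 point per library, ATRA in red and vehicle in blue. Kif1c and Kif5b stand above all other members, with mean levels of 130.1 and 105 FPKM in ATRA cultures and 103 and 127 FPKM in vehicle cultures, and Kif26a and Kif26b show the widest gaps between the groups.

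Of the 28 members, 5 were higher and 5 lower after ATRA and 18 were not called, tested with limma at an adjusted p under 0.05 over all tested genes. The called share was 35.7% for the kinesins and 39.3% for all tested genes, of which 20.3% were higher and 18.9% lower, so the family was called about as often as any gene. Leaving out ATRA replicate 1, 2 or 3 left 4, 6 or 5 members called, where 25.9%, 26.1% and 25.6% of all tested genes were called. Leaving out vehicle replicate 3 gave 18 members (64.3%), where 50.1% of all tested genes were called. Without vehicle replicate 1 or 2 the called share was 25.0% or 28.6% of the members, beside 36.7% or 30.6% of all tested genes. Members whose ATRA and vehicle values did not overlap numbered 16 (57.1%), against 53.8% of all tested genes. Among the mitotic kinesins 1 was higher and 1 lower, among the transport kinesins 2 and 2, and among the others 2 and 2. The median log2 fold change was -0.02 for mitotic, -0.16 for transport and -0.15 for other kinesins, beside 0.00 for all tested genes, and the median absolute change was 0.22, 0.27 and 0.70 in these groups, beside 0.23. All log2 fold changes are ATRA over vehicle with the SE of limma, from 3 libraries per group, on a log2(normalised count + 1) scale that understates changes of low genes. By the authors' deposited table, 11 of the 28 members had an adjusted p under 0.05, and 9 of these 11 were among the 10 called by limma. Of all 14536 genes with such a value 34.0% did, but these include genes under the minimum used here.

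**Figure D2:**
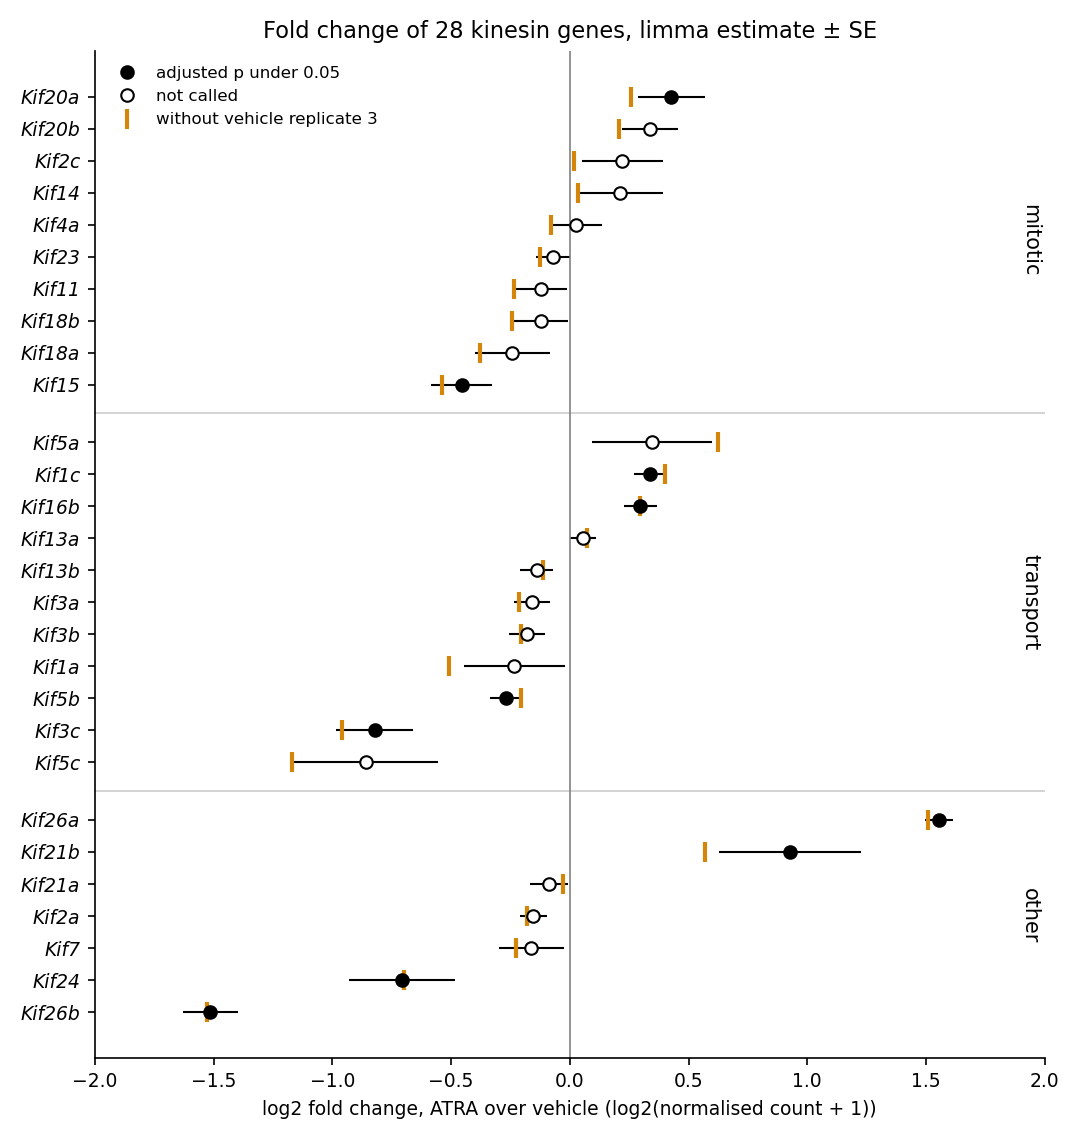
Log2 fold change of each of the 28 kinesins, ATRA over vehicle, with the SE from limma as a horizontal bar, grouped as mitotic, transport and other; filled points passed the adjusted p of 0.05 and orange ticks give the estimate without vehicle replicate 3. The changes run from -1.51 for Kif26b to 1.56 for Kif26a, and every mitotic estimate lies lower without that library.

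The mitotic kinesins did not move as a block. Kif20a and Kif15 passed the test in opposite directions and the other 8 did not pass, with log2 fold changes between -0.24 for Kif18a and 0.34 for Kif20b. What these genes shared was vehicle replicate 3, the lowest of the vehicle libraries for 10 of 10 mitotic kinesins and for 38.0% of all tested genes. There they lay 0.16 to 0.61 below the mean of the other vehicle libraries on the log2 scale, with a median of -0.38. The same library was lowest among vehicle for 17 of 18 listed spindle and midbody genes, which are partners of mitotic kinesins and the motors Kifc1 and Cenpe that lie outside the symbol rule, and for 8 of 8 proliferation genes such as Mki67 and Top2a, and it had the lowest fibroblast sum of the vehicle libraries. The part of these in the kinesin levels was not tested. For the transport kinesins it was the lowest vehicle library for 5 of 11 members and the highest for 5.

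Kif20a (ENSRNOG00000024428), which carries the chromosomal passenger complex to the central spindle at anaphase, had 1913, 1909 and 2077 normalised counts in ATRA replicates 1 to 3, against 1503, 1795 and 1157 in vehicle replicates 1 to 3. Every ATRA library was above every vehicle library, and vehicle replicate 3 was furthest below. The gene was 1.34-fold higher after ATRA (0.43 ± 0.14, limma adjusted p = 0.0443). The call was lost on leaving out ATRA replicate 1, 2 or 3 or vehicle replicate 1, and under scaling by library size alone or any of 3 edgeR fits (adjusted p up to 0.142), and without vehicle replicate 3 the estimate was 0.26 with an adjusted p of 0.0242. Its relative Kif20b, needed for the completion of cytokinesis, had 846, 789.6 and 899 normalised counts in ATRA and 687, 774 and 558 in vehicle. These groups did not overlap either, but the change of 0.34 ± 0.12 missed the threshold (adjusted p = 0.0551), and it passed with DESeq2 or without vehicle replicate 2. The authors' deposited table gives Kif20b a log2 fold change of 0.33 with an adjusted p of 0.0485. Kif23, of the same family, forms centralspindlin with Racgap1 and had 1208, 1094 and 1209.8 normalised counts in ATRA and 1290.1, 1262 and 1139 in vehicle. The groups overlapped (-0.07 ± 0.07, adjusted p = 0.463).

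Kif15 (ENSRNOG00000060356), a spindle motor that can keep the poles apart when Kif11 is blocked, had 127, 151 and 134 normalised counts in ATRA, against 208, 192 and 167 in vehicle. All ATRA libraries were below all vehicle libraries, and vehicle replicate 3 was again the lowest of its group. Kif15 was 1.37-fold lower after ATRA (-0.46 ± 0.13, limma adjusted p = 0.025), and the call was lost without ATRA replicate 1 or 3 or vehicle replicate 1 or 2 (adjusted p up to 0.095). Kif11, the main motor that pushes the spindle poles apart, had 814, 781 and 906 normalised counts in ATRA and 955, 1007 and 772 in vehicle. Its groups overlapped only through vehicle replicate 3 and it was not called (-0.12 ± 0.11, adjusted p = 0.406), but it was lower without that library (-0.24, adjusted p = 0.0297).

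The kinesin-8 motors, which trim microtubule ends, had the same pattern as Kif11. Kif18a, which dampens the movements of chromosomes at the spindle equator, had 132, 134 and 152 normalised counts in ATRA and 166, 198 and 136 in vehicle (-0.24 ± 0.16, adjusted p = 0.256). Kif18b, which shortens astral microtubules, had 404, 364 and 390.3 in ATRA and 452, 462 and 355 in vehicle (-0.12 ± 0.12, adjusted p = 0.433). Each passed as lower once vehicle replicate 3 was left out, at -0.38 (adjusted p = 0.0427) for Kif18a and -0.24 (adjusted p = 0.0356) for Kif18b.

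The remaining mitotic kinesins were not called with or without any library. Kif2c, a depolymerase that corrects faulty attachments of chromosomes, had 636, 585 and 704 normalised counts in ATRA and 582, 685 and 414 in vehicle (0.22 ± 0.17, adjusted p = 0.34). Kif4a, a chromosome-bound motor that sets the length of the central spindle with Prc1, had 703, 621 and 719 in ATRA and 680.4, 759 and 576 in vehicle (0.03 ± 0.11, adjusted p = 0.873). Kif14, which works with the kinase Cit in cytokinesis, had 132, 152 and 168 in ATRA and 156, 137 and 101 in vehicle (0.21 ± 0.18, adjusted p = 0.387). In each of these 3 genes the groups overlapped, and without vehicle replicate 3 the estimates lay at 0.02, -0.08 and 0.04. The Kif22 row, named for a chromosome-bound motor, did not reach the minimum, with 6.86, 4.04 and 6.5 normalised counts in ATRA and 1.94, 2.6 and 5.44 in vehicle.

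**Figure D3:**
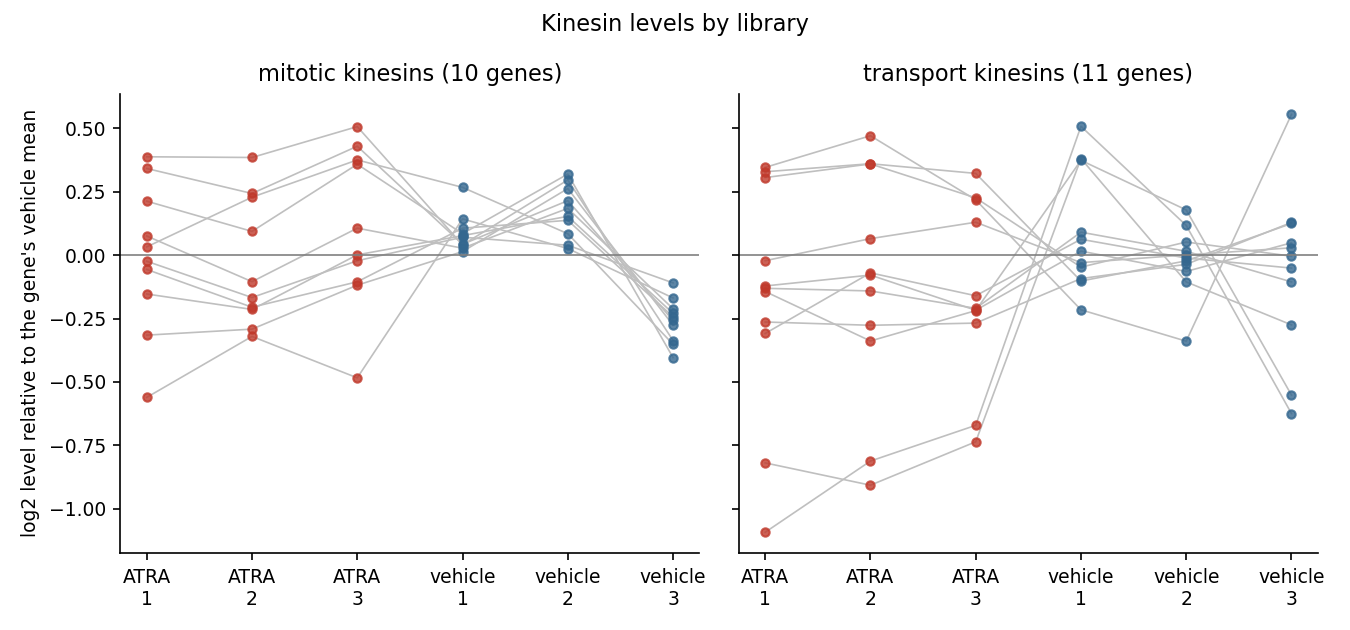
Log2 level of each mitotic (left) and transport (right) kinesin in the 6 libraries, relative to the mean of that gene in vehicle; each point is 1 gene in 1 library, and the grey lines join the points of a gene without implying an order of libraries. All 10 mitotic kinesins are lowest among vehicle libraries in vehicle replicate 3, while the transport kinesins spread to both sides there.

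Promoters were examined because genes of late mitosis often carry a CCAAT box beside a CHR element, the pair through which the NF-Y and DREAM complexes hold them to the late cell cycle. Sequences came from RefSeq (assembly GRCr8, whereas the deposited table was made on mRatBN7.2), and 22 of the 28 members had one. The 150 bases before the start were searched on both strands for CCAAT, for CHR as TTTGAA or TTCGAA, for the GC box GGGCGG and for the retinoic acid receptor half-site as AGGTCA or AGTTCA. Kif23 was not called, and of the 9 mitotic kinesins with a promoter it alone held both a CCAAT box and a CHR. The 3 mitotic kinesins shown are both called ones and Kif23, each 5′ to 3′ on the strand of the gene, with matches in capitals.
Kif20a (chr18:26504272-26504421, plus strand): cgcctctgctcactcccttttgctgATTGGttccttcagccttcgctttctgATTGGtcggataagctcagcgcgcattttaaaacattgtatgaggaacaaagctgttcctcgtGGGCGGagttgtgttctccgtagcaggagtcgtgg
Kif15 (chr8:131479254-131479403, plus strand): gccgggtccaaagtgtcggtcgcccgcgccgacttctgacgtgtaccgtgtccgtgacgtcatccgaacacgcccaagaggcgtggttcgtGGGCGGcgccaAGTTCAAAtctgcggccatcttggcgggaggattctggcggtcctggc
Kif23 (chr8:71320585-71320734, minus strand): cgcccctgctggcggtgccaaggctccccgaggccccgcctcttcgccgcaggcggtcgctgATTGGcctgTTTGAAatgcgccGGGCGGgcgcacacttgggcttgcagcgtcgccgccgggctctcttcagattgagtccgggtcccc

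In these windows Kif20a held a CCAAT box in reverse (ATTGG) at 125 and at 98 bases before the start and no CHR letters. Kif23 held a reversed CCAAT box 88 bases and a CHR 79 bases before the start. Kif15 held a CHR in reverse that begins 46 bases before the start and overlaps a receptor half-site that begins 48 bases before it, so the capitals run over both. Of 9 mitotic kinesins with a promoter 4 held a CCAAT box and 3 a CHR, of 9 transport kinesins 2 and 0, of 4 other kinesins 2 and 2 (Kif24 and Kif26b, with both), and of 33469 promoters of the same length 23.5% and 9.74%. GC boxes were found in 6 of 9 mitotic, 7 of 9 transport and 4 of 4 other promoters and in 26.0% of all. Half-sites were found in 2 of 9 mitotic (Kif15 and Kif18b), 0 of 9 transport and 1 of 4 other promoters (Kif26b) and in 15.0% of all. The shares of all promoters count every window, more than 1 for some genes, and are not limited to expressed genes. Each kinesin was counted with 1 window, so the shares are not strictly alike. A match is a run of letters and not a measured site, and a window without one says nothing of the factor.

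Transport kinesins changed at the top of the expression order in opposite directions. Kif1c (ENSRNOG00000031364) had 17864, 18261 and 17785 normalised counts in ATRA, against 13252, 14004 and 15509 in vehicle. All ATRA libraries were above all vehicle libraries, and vehicle replicate 3 was the nearest to them. Kif1c was 1.26-fold higher after ATRA (0.34 ± 0.07, limma adjusted p = 0.00581) and was called in all 17 alternative settings. Kif5b (ENSRNOG00000017466) had 18030.0, 17868 and 17975 normalised counts in ATRA, against 20301, 21108 and 23668 in vehicle. Here all ATRA libraries were below all vehicle libraries, and vehicle replicate 3 was the furthest from them. Kif5b was 1.21-fold lower (-0.27 ± 0.07, adjusted p = 0.0154), a call that was lost without any one of the ATRA libraries (adjusted p up to 0.0673). Since both motors were measured in the same libraries, their ratio does not depend on the size factors: in FPKM, Kif1c over Kif5b was 1.22, 1.26 and 1.22 in ATRA and 0.805, 0.818 and 0.808 in vehicle. The order of these leading motors was thus Kif1c above Kif5b in every ATRA library and Kif5b above Kif1c in every vehicle library.

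The promoters of both are shown because these motors hold most of the RNA of the members. Capitals again mark matches to the motifs above, which in these windows are GC boxes and, in Kif5b, a reversed CCAAT box.
Kif1c (chr10:55912943-55913092, plus strand): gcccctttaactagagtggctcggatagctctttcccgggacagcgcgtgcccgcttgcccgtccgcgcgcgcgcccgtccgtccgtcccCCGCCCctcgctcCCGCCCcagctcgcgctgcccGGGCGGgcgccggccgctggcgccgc
Kif5b (chr17:56185236-56185385, plus strand): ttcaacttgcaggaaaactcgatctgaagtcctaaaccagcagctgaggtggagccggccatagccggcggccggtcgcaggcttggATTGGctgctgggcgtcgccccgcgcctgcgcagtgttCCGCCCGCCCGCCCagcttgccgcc

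In Kif1c the GC boxes began 60, 47 and 26 bases before the start. In Kif5b they overlapped one another, beginning 25, 21 and 17 bases before the start, with the CCAAT box at 63 bases. Neither window held CHR or receptor half-site letters.

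Lower down the order, Kif3c and Kif16b passed the test. Kif3c (ENSRNOG00000011394), a kinesin-2 motor, had 255, 239.6 and 269.9 normalised counts in ATRA, against 587, 418 and 372 in vehicle. The ATRA libraries lay close together and below all vehicle libraries, which were spread out. Kif3c was 1.77-fold lower (-0.82 ± 0.16, limma adjusted p = 0.00572) and was called in all 17 alternative settings. Kif3b and its main partner Kif3a, which together drive transport in cilia, were not called. Kif3b had 885, 1044 and 981 normalised counts in ATRA and 1145, 1088 and 1058 in vehicle (-0.18 ± 0.08, limma adjusted p = 0.0936), and passed as lower with library size alone or upper-quartile factors. Kif3a had a log2 fold change of -0.16 ± 0.08 (adjusted p = 0.131) and passed as lower with library size alone. It was also lower without vehicle replicate 3 (-0.21, adjusted p = 0.0333). Kif16b (ENSRNOG00000004951), which moves early endosomes, had 655, 680.4 and 620.1 normalised counts in ATRA, against 513, 549 and 529 in vehicle. The groups did not overlap, and Kif16b was 1.23-fold higher (0.30 ± 0.07, adjusted p = 0.0121). That call was lost without ATRA replicate 1 or 2 and with library size alone (adjusted p up to 0.0623).

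The neuronal heavy chains of kinesin-1 were present at a small fraction of Kif5b, which supplied 99.3% to 99.4% of the Kif5 FPKM in ATRA and 99.2% to 99.4% in vehicle. Kif5c had 26.5, 32.4 and 35.8 normalised counts in ATRA and 82.3, 62.5 and 37.0 in vehicle. Vehicle replicate 3 lay just above the highest ATRA library, and the change of -0.86 ± 0.30 missed the threshold (limma adjusted p = 0.0547). Kif5c was called in 7 of 16 alternative settings, among them all 3 edgeR fits, DESeq2 and the fit without vehicle replicate 3 (-1.17, adjusted p = 0.00314), and the authors' deposited table gives it -0.95 with an adjusted p of 0.0325. Kif5a had 67.6, 73.8 and 61.8 in ATRA and 45.5, 41.7 and 78.3 in vehicle, where replicate 3 was above every ATRA library (0.34 ± 0.25, adjusted p = 0.312; 0.62 without that library, adjusted p = 0.0212). The synaptic vesicle motor Kif1a had 689, 602 and 654 in ATRA and 986, 861 and 519 in vehicle, with replicate 3 below every ATRA library (-0.23 ± 0.21, adjusted p = 0.414; -0.51 without it, adjusted p = 0.00124). The endosome motor Kif13a (0.06 ± 0.05) and the related Kif13b (-0.14 ± 0.07) were not called, except Kif13b as lower with library size alone.

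The clearest changes of the family were in Kif26a and Kif26b, atypical kinesins that bind microtubules but have lost the usual motor activity. In mice Kif26a restrains growth factor signalling in enteric neurons, and Kif26b acts in the kidney mesenchyme and downstream of Wnt5a and Ror receptors. Kif26a (ENSRNOG00000013661) had 2556, 2639.9 and 2663 normalised counts in ATRA, against 923, 915 and 834 in vehicle. The libraries of each group lay close together and the groups were far apart. Kif26a was 2.94-fold higher (1.56 ± 0.06, limma adjusted p = 2.24e-06), position 29 by p among the 13110 tested genes. Kif26b (ENSRNOG00000028624) had 185, 151 and 157 normalised counts in ATRA, against 433, 517 and 461 in vehicle. Again the groups did not overlap, and Kif26b was 2.85-fold lower (-1.51 ± 0.12, adjusted p = 7.67e-05). Both were called in all 17 alternative settings, with log2 fold changes of 1.45 to 1.58 for Kif26a and -1.62 to -1.44 for Kif26b. A change at least as large as that of Kif26b was seen in 5.07% of tested genes.

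The pair thus moved apart: in FPKM, Kif26a over Kif26b was 15.2, 19.3 and 18.7 in ATRA and 2.36, 1.95 and 2.00 in vehicle. Kif26a was already above Kif26b in every vehicle library.

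The promoter of Kif26b is shown as that of the member with the largest fall; the table of promoters used here holds none for Kif26a.
Kif26b (chr13:92815277-92815426, plus strand): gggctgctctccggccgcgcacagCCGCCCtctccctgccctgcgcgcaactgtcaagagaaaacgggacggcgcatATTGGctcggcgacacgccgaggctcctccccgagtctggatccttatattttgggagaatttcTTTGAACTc
Close to the start, a CHR that begins 9 bases before it overlaps a reversed receptor half-site that begins 7 bases before it. The window also held a reversed CCAAT box at 73 bases and a reversed GC box at 126 bases.

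**Figure D4:**
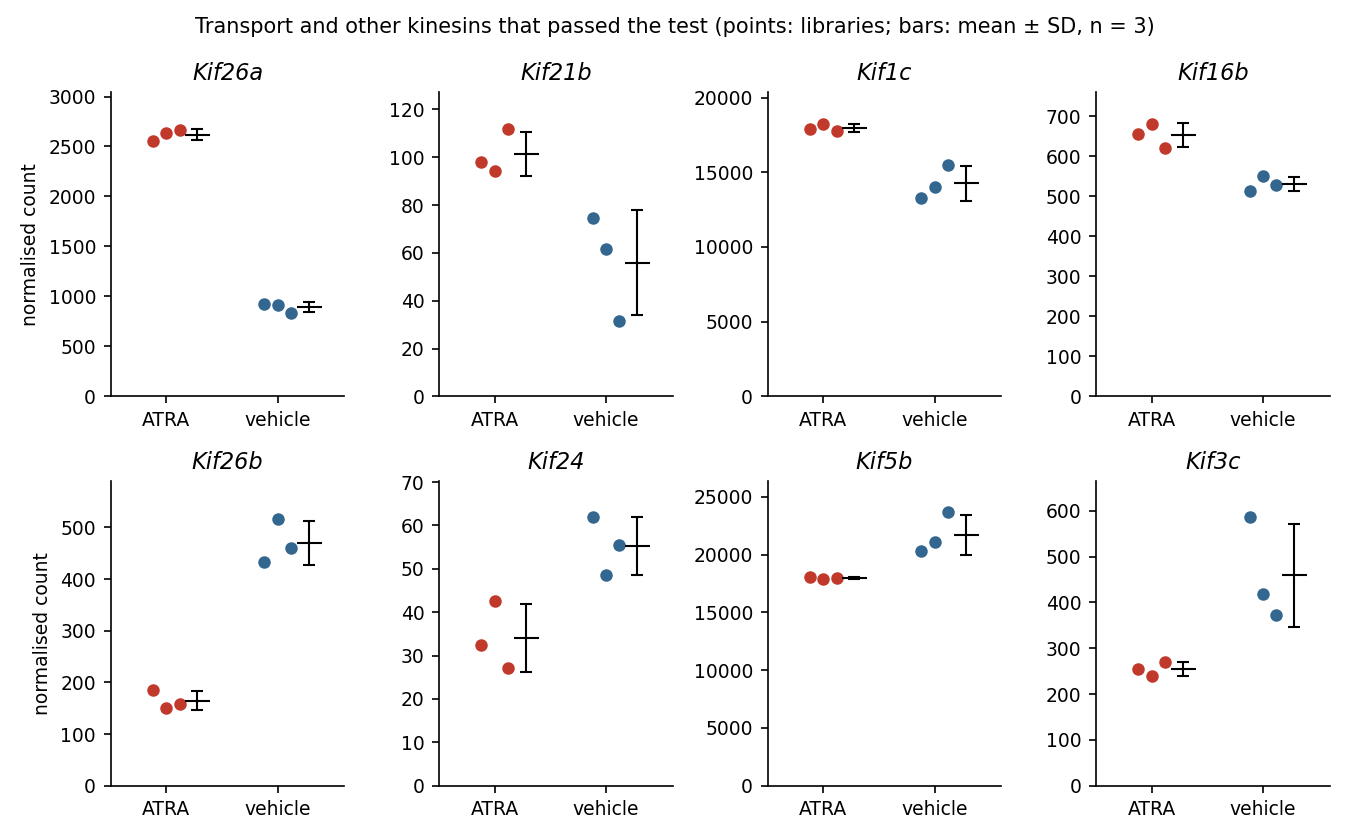
Normalised counts of the 8 transport and other kinesins that passed the test (points are libraries, ATRA left of vehicle; black marks are the mean ± SD, n = 3). The upper row holds Kif26a, Kif21b, Kif1c and Kif16b, which were higher after ATRA, and the lower row Kif26b, Kif24, Kif5b and Kif3c, which were lower, with no overlap between groups in any of them.

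Among the other kinesins, Kif21b and Kif24 passed the test at low levels. Kif21b (ENSRNOG00000008471), a motor that also slows microtubule growth and is best known from neurons and T cells, had 98.0, 94.0 and 112 normalised counts in ATRA, against 74.5, 61.6 and 31.5 in vehicle. The groups did not overlap and vehicle replicate 3 was far below the rest. Kif21b was 1.90-fold higher (0.93 ± 0.30, limma adjusted p = 0.0405), with an estimate of 0.57 without vehicle replicate 3. Omitting ATRA replicate 1, 2 or 3 or vehicle replicate 2 ended the call, as did scaling by library size or upper quartile (adjusted p up to 0.13). Kif24 (ENSRNOG00000012735), a centriolar depolymerase that holds back the growth of cilia, had 32.3, 42.5 and 27.1 normalised counts in ATRA, against 61.9, 48.6 and 55.5 in vehicle. It was 1.63-fold lower without overlap of the groups (-0.70 ± 0.22, adjusted p = 0.0378). It was not called without ATRA replicate 1 or 3 or vehicle replicate 1 or 2, with array weights, with no filter or with DESeq2 (adjusted p up to 0.129), and the authors' deposited table gives it an adjusted p of 0.0743.

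Of the rest, the depolymerase Kif2a had 966, 992 and 981 normalised counts in ATRA, against 1142, 1077 and 1053 in vehicle. Its groups did not overlap, and the change of -0.15 ± 0.06 missed the threshold (limma adjusted p = 0.0668), which it passed without vehicle replicate 3 (-0.18, adjusted p = 0.029) and when scaled by library size or upper quartile. Kif21a, which limits microtubule growth at the cell cortex, and Kif7, which organises the tip of the primary cilium for Hedgehog signalling, had log2 fold changes of -0.09 ± 0.08 and -0.16 ± 0.14 and were not called in any setting.

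Set side by side, the mean log2 level of the transport kinesins lay lower in ATRA without overlap of the groups. That of the mitotic kinesins overlapped. Each gene counts alike in these means. Of the 11 transport members 4 had a positive and 7 a negative change, with the largest falls in Kif5c (-0.86, not called) and Kif3c (-0.82). Their summed normalised counts overlapped, at 42315 to 42825 in ATRA and 40893 to 45796 in vehicle. Most of this sum came from Kif1c and Kif5b, which changed in opposite directions, so it says little of the other transport members. Among all tested genes 53.8% did not overlap. The mean log2 level of the transport members, relative to its vehicle mean, was -0.17, -0.12 and -0.14 in ATRA and 0.09, -0.02 and -0.07 in vehicle. That of the mitotic members was -0.01, -0.04 and 0.10 in ATRA and 0.09, 0.17 and -0.26 in vehicle. The mitotic minus the transport level was 0.17, 0.09 and 0.25 in ATRA and 0.00, 0.19 and -0.19 in vehicle. For this difference the groups overlapped through vehicle replicate 2, and vehicle replicate 3 was the lowest. The difference of 0.17 between group means was 0.07 without vehicle replicate 3 and 0.26 without vehicle replicate 2. Without vehicle replicate 3, 18 members were called, 6 higher and 12 lower, which included all 10 called with it. In the same fit 26.0% of all tested genes were higher and 24.1% lower, so calls were more frequent over all genes as well. The median log2 fold change there was -0.10 for mitotic and -0.21 for transport kinesins. In that fit 5 mitotic kinesins passed, Kif20a as higher and Kif11, Kif15, Kif18a and Kif18b as lower.

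Of the genes listed as partners of the transport motors, most of those that passed the test were higher after ATRA. Among 22 genes listed as light chains, adaptors and other partners 19 were tested; 9 of them rose, 1 fell and 9 did not pass, so that 52.6% were called, beside 39.3% of all tested genes (20.3% higher and 18.9% lower). The 1 that fell, Fez1, met the expression minimum through the vehicle libraries alone, and the share called includes it. The median log2 fold change of the list was 0.19, beside 0.00 for all tested genes. Kifbp, which binds the motor domain of several kinesins and keeps them off microtubules, had 2500.4, 2576 and 2673 normalised counts in ATRA, against 1170.1, 1349.8 and 1539.9 in vehicle, and was 1.92-fold higher (0.94 ± 0.09, limma adjusted p = 0.000275). Trak1, which links kinesin-1 to mitochondria, had 17941, 17919 and 18446 in ATRA, against 7886, 10401 and 11127 in vehicle, and was 1.87-fold higher (0.90 ± 0.12, adjusted p = 0.000855). In both genes every ATRA library was well above every vehicle library, with vehicle replicate 3 the highest of its group. Plekhm1, an adaptor of late endosomes and lysosomes, was 1.66-fold higher (0.73 ± 0.09, adjusted p = 0.000521). The other members that were higher were the light chains Klc1, Klc2 and Klc4, the mitochondrial adaptor Trak2 and its membrane anchor Rhot2, and Kifap3, which joins Kif3a and Kif3b to cargo, with log2 fold changes between 0.22 and 0.61. The calls were lost for Rhot2 without ATRA replicate 1 (adjusted p = 0.0508), for Trak2 without ATRA replicate 2 or 3 (up to 0.0567) and for Kifap3 with library size alone (0.0999).

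The 1 partner called lower was Fez1, a kinesin-1 adaptor best known from neurons, chosen for naming after its values were seen. It had 0.98, 4.04 and 0 normalised counts in ATRA, against 49.4, 33.0 and 15.2 in vehicle. It met the expression minimum through the vehicle libraries alone, so it had to differ between the groups, and its values are only a description. Fez1 is still the 1 gene that fell among the 19 tested partners and is part of the 52.6% called. The 9 that rose do not include it.

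The heavy and light chains of kinesin-1 changed in opposite directions. Klc4, 1 of the light chains that bind cargo, had 917, 908 and 966 normalised counts in ATRA, against 566, 613 and 650.3 in vehicle, and was 1.53-fold higher (0.61 ± 0.07, limma adjusted p = 0.000568). Klc1 was 1.25-fold higher (0.32 ± 0.07, adjusted p = 0.00665) and Klc2 1.30-fold (0.37 ± 0.11, adjusted p = 0.0282), a call lost for Klc2 without any one ATRA library, without vehicle replicate 2 or with library size alone (adjusted p up to 0.102). The summed FPKM of these 3 light chains was 67.6, 63.8 and 67.8 in ATRA and 45.1, 50.3 and 56.7 in vehicle, while that of the 3 heavy chains was 106, 106 and 106 in ATRA and 120.2, 125 and 139.7 in vehicle. The light chains thus amounted to 0.635, 0.605 and 0.638 of the heavy chains in ATRA and 0.376, 0.404 and 0.406 in vehicle, with no overlap. In vehicle both sums were highest in replicate 3.

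**Figure D5:**
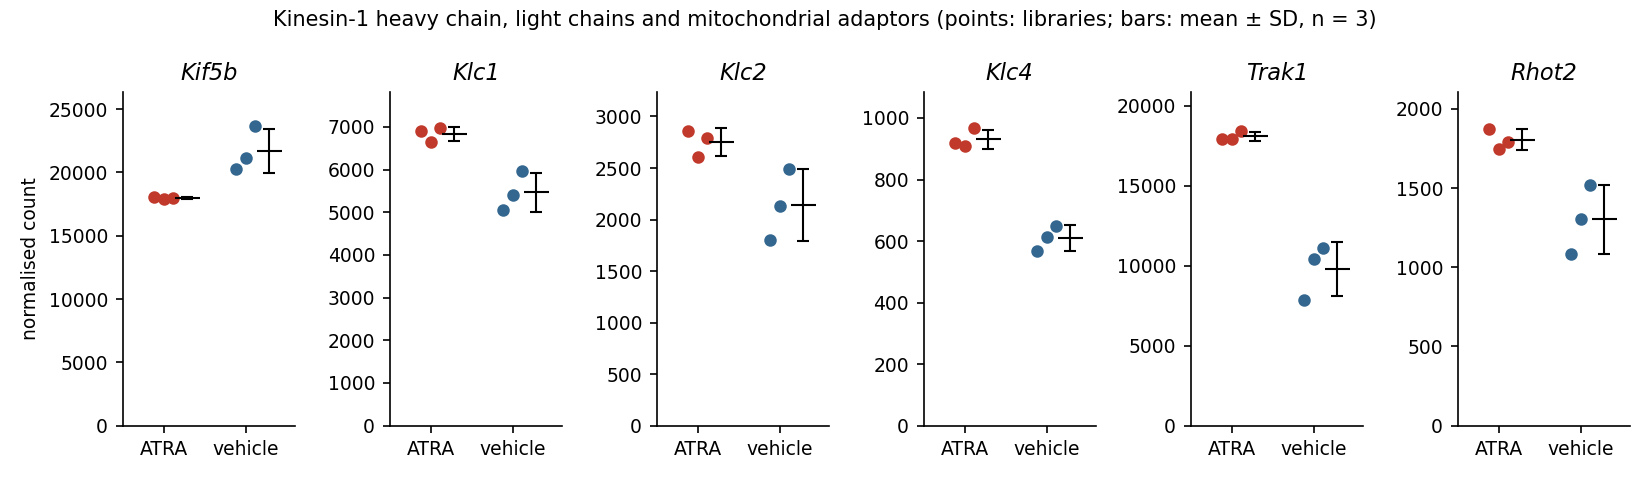
Normalised counts of the kinesin-1 heavy chain Kif5b, the light chains Klc1, Klc2 and Klc4 and the mitochondrial adaptors Trak1 and Rhot2 (points are libraries, ATRA left of vehicle; black marks are the mean ± SD, n = 3). Kif5b is lower and the other 5 genes are higher in ATRA, with no overlap, and in all 6 genes vehicle replicate 3 is the highest vehicle library.

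Of the 18 spindle and midbody genes, Kifc1 and Cenpe among them, limma called 1 lower and 0 higher. This was 5.56% of the list, beside 39.3% of all tested genes. Their median log2 fold change was 0.02, and 2 had an unadjusted p under 0.05. DESeq2 called 1 lower and edgeR 1 to 3 lower, and neither called any higher. The lower one was Cit, the citron kinase that holds the midbody together with Kif14, with 655, 667 and 676 normalised counts in ATRA, against 890.4, 982 and 754 in vehicle (-0.38 ± 0.10, limma adjusted p = 0.0161). The call was lost without any one ATRA library (adjusted p up to 0.062). Next by p were 2 subunits of the chromosomal passenger complex, Incenp (-0.22 ± 0.08, adjusted p = 0.0562) and Aurkb (-0.21 ± 0.09, adjusted p = 0.107), and then Aurka, the kinase of the spindle poles (0.41 ± 0.19, adjusted p = 0.125). The count and its direction depended on the vehicle libraries: without vehicle replicate 2, limma called 4 higher, Aurka among them, and 1 lower, and without vehicle replicate 3 it called 0 higher and 5 lower, Incenp and Aurkb among them. All tested genes were called at 30.6% and 50.1% in these fits. Of the 8 proliferation genes limma and the edgeR fits called 0, beside 39.3% of all tested genes in limma, with 2 at an unadjusted p under 0.05. Here too other settings made calls. DESeq2 and limma without vehicle replicate 2 each called 2 higher, the replicate block 1 higher and library size alone 2 lower. Array weights and limma without vehicle replicate 3 each called 2 higher and 2 lower.

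Of the 38 rows of the family 10 stayed under the minimum and were not tested: Kif6, Kif9, Kif12, Kif17, Kif19, Kif19b, Kif22, Kif27, Kif28p and Kif4b. The highest value among them was 15.2 normalised counts, for Kif27 in vehicle replicate 3, and a gene with 3 reads has 2.60 to 3.26 normalised counts, depending on the library. Nearest to the limit were Kif5c inside it, which needed 3 libraries at 10 and had 37.0 in the library that decides this, and Kif6 outside it, with 9.10 there. No member met the limit through 1 group alone, since the lowest value of any member in any library was 26.5. The near-copy Kif4b was listed with 0.968 normalised counts in vehicle replicate 1 and 0 elsewhere. How reads shared by near-identical copies such as Kif4a and Kif4b were counted is not given in the sources used here, so the split between them is uncertain, as it is for Kif1c, Kif11, Kif13a and Kif18b, which have pseudogenes in RefSeq.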

How the data were processed

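Poly(A) RNA of 3 ATRA and 3 vehicle libraries was analysed, with groups from the labels. Trim Galore (0.6.4), the aligner STAR (2.7.3a), the counter HTSeq (0.11.2), DESeq2 (1.32.0) and the build mRatBN7.2 stand in the submitters' processing notes. Annotation release, strand setting and the handling of multiply mapped reads are, in the sources used here, not given. Per the file headers, the authors deposited for each library a signal per gene, its normalised count (reads divided by a size factor), FPKM, and their own log2 fold change with its standard error, test score, p-value and adjusted p-value. FPKM by the authors equalled the normalised count times a constant per gene. Normalised counts were whole multiples of 1 read for 100% of values (tolerance 1e-06), which gave the depth; for ATRA replicate 2 the step of 1.01 is too near 1 to be told from rounding. Of 23096 rows, 3108 had no symbol and 205 shared one, which was then kept for the row with the highest mean.

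Genes at 10 or more in at least 3 libraries were tested on log2(normalised count + 1) with limma 3.58.1 (R 4.3.3, variance trend), with Benjamini-Hochberg adjustment over all 13110. The limma fit was planned for normalised values, with edgeR only for raw counts. Alternatives were other pseudocounts and filters, library size alone, edgeR 4.0.16 with TMM, upper-quartile and the table's factors, DESeq2 1.42.0, array weights, a replicate block and leaving out each library; edgeR and DESeq2 ran on the recovered reads. The test was checked on simulated data. The simulation gave both groups the same spread, so it cannot show how the test behaves with the unequal spread of these groups. No pair of libraries was a duplicate, with chi-square per degree of freedom of 2.53 to 3.32 within ATRA and 22.0 to 46.2 within vehicle. The members, the gene lists (kinesins, their partners, dynein and dynactin, proliferation genes, cell type markers) and the alternatives were chosen with earlier results of these data known.

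Values per library are given for all mitotic members and for each transport or other member that was called or has the highest mean normalised count of its kinesin family (in kinesin-13 this is Kif2a, whereas Kif2c leads in FPKM), and partner lists are named by their 4 smallest p-values; Kif1a, Kif5a, Kif5c and the further partners with values were named after their values were seen. Kif1b, Kif2b and Kif25 were not analysed here. Promoters came from RefSeq (GRCr8).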

Additional observations from a re-analysis of the deposited data

How the results depend on the processing

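Counts of called genes moved most when a library was left out. Leaving out 1 library gave 4 to 18 called kinesins (10 with all), 0 to 5 mitotic (2), 2 to 8 transport (4), 2 to 5 other kinesins (4), 0 to 5 spindle and midbody genes (1), 2 to 9 dynein and dynactin genes (6) and 8 to 12 light chains, adaptors and partners (10); the upper end came without vehicle replicate 3 for the kinesin counts. Deviations of same-numbered libraries from their group means correlated at 0.0004, -0.10 and -0.01, with ATRA replicate 1 closest to vehicle replicate 2. With 3 libraries per group, and ATRA libraries that differ little, these correlations cannot tell whether the replicate numbers pair the samples. With the number as a block, 6 kinesins, 0 mitotic and 2 other kinesins were called. Mitotic kinesins called were 1 with library size alone, with TMM, upper-quartile or the table's factors in edgeR. Library size alone gave 7 transport kinesins, and spindle and midbody genes called were 3 with it, 2 with TMM, 3 with upper-quartile factors and 4 with array weights. Library size alone shifted the median of all genes by -0.11, so that 2 kinesins were higher and 10 lower, and upper-quartile factors gave 3 and 8, against 5 and 5. Among the named genes, directions changed in uncalled ones: Kif13a (-0.051 with library size alone), Kif4a (-0.083 with library size alone, -0.032 with upper-quartile factors, -0.051 with array weights, -0.080 to 0.12 leaving out 1 library), Kifc1 (-0.12 to 0.059 leaving out 1 library), Cenpe (-0.078 with library size alone, -0.0091 with TMM, -0.051 with upper-quartile factors, -0.0020 with edgeR with the table's factors, -0.0065 with DESeq2, -0.11 with array weights, -0.16 to 0.20 leaving out 1 library), Mapk8ip1 (-0.033 with library size alone), Mapk8ip3 (-0.097 with library size alone, -0.040 with upper-quartile factors, -0.014 with array weights, -0.072 to 0.064 leaving out 1 library), Arl8b (-0.054 to 0.0087 leaving out 1 library), Madd (-0.28 to 0.032 leaving out 1 library), Hap1 (-0.18 to 0.18 leaving out 1 library) and Dync1h1 (0.017 with array weights, -0.045 to 0.012 leaving out 1 library). Over 60 genes, 894 values kept direction and side of the threshold, 57 lost the call and 38 gained it; the cause was not tested.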

Other observations

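Kinesins outside the symbol rule included a large change. Kifc3, a minus-end-directed motor of the kinesin-14 family that works at the Golgi and at cell junctions, had 645, 656 and 573 normalised counts in ATRA, against 2196, 1664 and 1196 in vehicle. The groups did not overlap, and Kifc3 was 2.62-fold lower (-1.39 ± 0.19, limma adjusted p = 0.00112), with vehicle replicate 3 the lowest of its group. Kifc2, a related motor best known from neurons, had 71.5, 66.7 and 78.1 in ATRA, against 45.5, 52.1 and 46.8 in vehicle, and was 1.49-fold higher (0.57 ± 0.16, limma adjusted p = 0.0237). That call was lost without ATRA replicate 1, 2 or 3 or vehicle replicate 1, with no filter and with DESeq2 (adjusted p up to 0.0977). The mitotic motors Kifc1 and Cenpe also stand in the list of spindle and midbody genes. Kifc1, which focuses spindle poles, and Cenpe, which carries chromosomes to the spindle equator, were not called (-0.03 ± 0.09 and 0.03 ± 0.16).

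Cytoplasmic dynein and its activator dynactin, which move cargo in the opposite direction to most kinesins, had calls in both directions: limma called 3 of 21 tested genes as higher and 3 as lower. This was 28.6% of the list, beside 39.3% of all tested genes (20.3% higher and 18.9% lower), and the median log2 fold change of the list was -0.01. The heavy chain Dync1h1 averaged 19647 ± 371 normalised counts in ATRA and 19828 ± 795 in vehicle (SD, n = 3; -0.01 ± 0.06, limma adjusted p = 0.875). Nde1, a regulator of dynein needed in dividing cells, had 1698, 1698 and 1781 normalised counts in ATRA, against 1131, 1287 and 1072 in vehicle, and was 1.49-fold higher (0.57 ± 0.07, adjusted p = 0.00088). The dynactin subunit Dctn6 was higher as well (0.26 ± 0.06, adjusted p = 0.0116), while the light intermediate chain Dync1li1 (-0.23 ± 0.05, adjusted p = 0.0072) and the cargo adaptor Bicd1 (-0.41 ± 0.10, adjusted p = 0.0121) were lower. The Dctn6 and Bicd1 calls were lost without ATRA replicate 3 (adjusted p = 0.0592 and 0.0561), and that of Dctn6 also with library size alone (0.0703).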
